A study of Homo sapiens with 34 samples.

Results

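Base excision repair is described here through 10 genes in 3 human B-ALL cell lines, each depleted of cyclin D3 or treated with a CDK4/6 inhibitor. The genes were *UNG*, *NEIL3*, *NEIL1*, *NEIL2*, *OGG1*, *MUTYH* and *MPG*, which encode DNA glycosylases, and *APEX1*, *POLB* and *XRCC1*, which act after them. They were taken by symbol from the deposited tables, which list 17587 genes in at least 1 comparison and 13307 genes in all 6, and all 10 were listed in all 6. The set and its split into 2 cell-cycle-bound genes, *NEIL3* and *UNG*, and 8 constant ones were selected on these same levels, so the treated-to-control ratios below are a description and carry no test.

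All 3 lines came from B-cell precursor leukemia, with the fusion ETV6-PDGFRB in NALM-6, MLL-AF4 in RS4;11 and BCR-ABL in BV-173. In each line, cells carrying 1 shRNA against *CCND3* were compared with cells carrying a scrambled shRNA, both in the lentiviral vector pRSI12-U6-sh-UbiC-TagRFP and isolated 4 days after transduction, and 1 µM palbociclib, which inhibits CDK4 and CDK6, was set against DMSO after 3 days. The 12 groups held 3 samples each, except for 2 samples in NALM-6 with *CCND3* shRNA and in BV-173 with DMSO, 34 in all. The tables give 1 level per group and no value per sample, so neither the spread between replicates nor the depth per sample is known, and a difference within a line cannot be set against replicate error. The mean ± SD given below is over the 3 lines, which differ in genotype and are not replicates of each other. Each level is an average over a culture, so fewer cells holding a transcript and less transcript per cell cannot be told apart.

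The level of *CCND3*, the shRNA target, was 19498 with scrambled and 4727 with *CCND3* shRNA in NALM-6, 16178 and 3353 in RS4;11, and 6619 and 2060 in BV-173, in the scaled reads of each table. The log2 ratios of −2.04, −2.27 and −1.68 went with the labels. Under palbociclib *CCND3* differed by −0.36, −0.29 and −0.40 on the log2 scale. All 10 B-lineage markers were listed in every comparison, with a summed level of 57600 to 101359 per group. Not all were high in each line. In RS4;11 *MME* stood at 2.53 to 6.70 and *DNTT* at 75.2 to 215, both named after their values were seen. Of 10 markers of T cells, myeloid cells, erythroid cells and other tissues, 4 to 8 were listed, with a summed level of 41.7 to 276 per group. In RS4;11 the largest part of that sum was *COL1A1*, at 101 to 216, a range much like that of *DNTT*. It was also named after its values were seen.

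In base excision repair, a glycosylase finds a damaged or misplaced base and cuts it from the sugar, and an AP endonuclease then nicks the strand at the empty site. The gap is filled either by 1 nucleotide, through DNA polymerase beta and the scaffold protein XRCC1 (short-patch repair), or by several, through the clamp, polymerases, flap nuclease and ligase that also copy the genome in S phase (long-patch repair). Some glycosylases serve resting and dividing cells alike, whereas the nuclear form of UNG removes uracil close to the replication fork and NEIL3 is known as a glycosylase of proliferating cells, with activity on crosslinks and single-stranded DNA. Lymphocyte precursors divide fast, and UNG in the B lineage is also known for its part in antibody diversification.

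The promoters shown belong to *NEIL3* and *UNG*, the pair set apart in the selection, and to *XRCC1* and *MPG* as examples. *XRCC1* was below its control in each comparison, as was *MUTYH*. *MPG* was higher in each, as were *NEIL1* and *NEIL2*. The promoters of *MUTYH* and *NEIL1* are not shown. The sequences are the 250 bases before the start site in RefSeq (GRCh38.p14), read 5′ to 3′ along the gene, and capitals mark words that were searched on both strands. The words were CCAAT (the CCAAT box, which reads ATTGG on the other strand), TTTGAA or TTCGAA (the CHR element of genes used late in the cell cycle), TTTCCCGC, TTTCGCGC, TTTGCCGC or TTTGGCGC (the E2F site) and CACGTG (the E-box). In *UNG* the E-box and the reverse of the CHR word lie side by side and are capitalised as 1 run.
NEIL3, chr4:177309624-177309873, plus strand: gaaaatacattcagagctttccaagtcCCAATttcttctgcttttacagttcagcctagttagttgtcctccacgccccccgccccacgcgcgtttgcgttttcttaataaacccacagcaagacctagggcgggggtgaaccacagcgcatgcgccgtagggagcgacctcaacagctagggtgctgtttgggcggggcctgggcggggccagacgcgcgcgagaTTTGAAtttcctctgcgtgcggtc
UNG, second start site, chr12:109097922-109098171, plus strand: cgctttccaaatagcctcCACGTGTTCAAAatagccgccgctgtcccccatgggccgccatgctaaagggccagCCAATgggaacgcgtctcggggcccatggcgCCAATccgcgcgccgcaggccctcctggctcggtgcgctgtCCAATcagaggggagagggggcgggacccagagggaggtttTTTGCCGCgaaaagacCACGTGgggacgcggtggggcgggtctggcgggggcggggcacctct
XRCC1, chr19:43575528-43575777, minus strand: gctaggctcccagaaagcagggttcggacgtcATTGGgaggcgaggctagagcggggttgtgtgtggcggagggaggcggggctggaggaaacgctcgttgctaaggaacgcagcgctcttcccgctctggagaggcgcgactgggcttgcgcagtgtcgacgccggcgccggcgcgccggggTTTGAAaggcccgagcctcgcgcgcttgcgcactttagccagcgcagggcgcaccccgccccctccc
MPG, chr16:77975-78224, plus strand: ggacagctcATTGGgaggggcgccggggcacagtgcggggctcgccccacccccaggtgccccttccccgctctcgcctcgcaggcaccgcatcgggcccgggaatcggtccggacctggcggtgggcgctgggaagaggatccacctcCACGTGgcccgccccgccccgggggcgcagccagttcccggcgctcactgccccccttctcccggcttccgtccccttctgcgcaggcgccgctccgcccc

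The CHR word stood 24 bases before the start of *NEIL3*, 67 bases before that of *XRCC1* and 226 bases before the second start of *UNG*. Of the words marked above, the window of the first start of *UNG* held only CCAAT. An 8-letter E2F word was found in 1 gene only, *UNG*, 63 bases before its second start, beside an E-box 47 bases before it. Of all 35116 RefSeq promoter windows of 250 bases before to 50 after the start, 3.31% held an E2F word of this kind, 16.4% a CHR word, 34.6% a CCAAT word and 7.26% an E-box. Of the 13 windows of the 8 genes with an entry, 1 held the E2F word, 4 the CHR word, 10 the CCAAT word and 3 the E-box. Counted by gene, with a word in any window of the gene, 1 held the E2F word and 8 the CCAAT word. The CHR word was in 4 genes (*MUTYH*, *NEIL3*, *UNG* and *XRCC1*) and the E-box in 3 (*APEX1*, *MPG* and *UNG*). The shares of all windows compare with the counts of windows only, since a gene can have several windows. With 7 letters in place of 8, the E2F word was in 5 of the 13 windows, beside 13% of all windows. These belonged to 4 genes (*MUTYH*, *OGG1*, *UNG* and *XRCC1*), so the count of 1 depends on the first T of the 8-letter words. Of the genes with a CHR word, *NEIL3*, *MUTYH* and *XRCC1* had log2 ratios all below 0, whereas *UNG* was at 0.67 in BV-173 with palbociclib. A word match is not a binding site, and a link between words and ratios was not tested. *NEIL2* and *POLB* had no entry.

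*NEIL3* had the lowest ratio of the 10 genes in each of the 6 comparisons. Its level was 390 in NALM-6 cells with scrambled shRNA and 134 with *CCND3* shRNA, 285 and 79.5 in RS4;11, and 347 and 204 in BV-173. Knockdown thus left 34.4%, 27.9% and 58.7% of the control level. Under palbociclib the level of *NEIL3* was 20.2 against 478 with DMSO in NALM-6, 4.51 against 465 in RS4;11 and 93.0 against 636 in BV-173, which is 4.23%, 0.971% and 14.6% of the control level. The treated level was below the control level in all 6 comparisons, and the lowest level of all, that of RS4;11 with palbociclib, belonged to the line whose knockdown level was lowest too.

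The log2 ratio of *NEIL3* (chr4:177309874-177371268) was −1.54, −1.84 and −0.77 with knockdown (in NALM-6, then RS4;11, then BV-173, the order used for all ratios below), a mean of −1.38 ± 0.55 (SD, n = 3 lines), and −4.56, −6.69 and −2.77 with palbociclib, a mean of −4.67 ± 1.96. In both treatments the order of the lines was the same, with RS4;11 lowest and BV-173 nearest to 0. Among all genes of a comparison *NEIL3* ranked 47 from the lowest of 15409, 94 of 15944 and 271 of 14763 with knockdown. With palbociclib it ranked 5 of 15614, 5 of 15857 and 7 of 14797. The knockdown ratio was above the palbociclib ratio by 3.02, 4.85 and 2.00 on the log2 scale, a mean of 3.29 ± 1.44. Each table was scaled separately, so levels of different tables were set on 1 common scale by the median ratio over the 13307 shared genes. On it the DMSO controls held 1.29, 1.60 and 1.87 times the *NEIL3* level of the scrambled controls. The palbociclib level in RS4;11 is low, and a pseudocount of 10 gave a mean of −3.90 over the lines for palbociclib. By the mean of the control and treated levels, ratios of genes under 10 spread less than those of genes at 100 or more. The SD was 0.236 to 0.796 against 0.336 to 0.919 on the log2 scale, although in NALM-6 with palbociclib both were 0.796. By that mean *NEIL3* was among the genes at 100 or more. With palbociclib it stood there through its control level, since its treated level was 4.51 in RS4;11. These spreads therefore do not show how far so low a level affects its ratio.

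**Figure D1:**
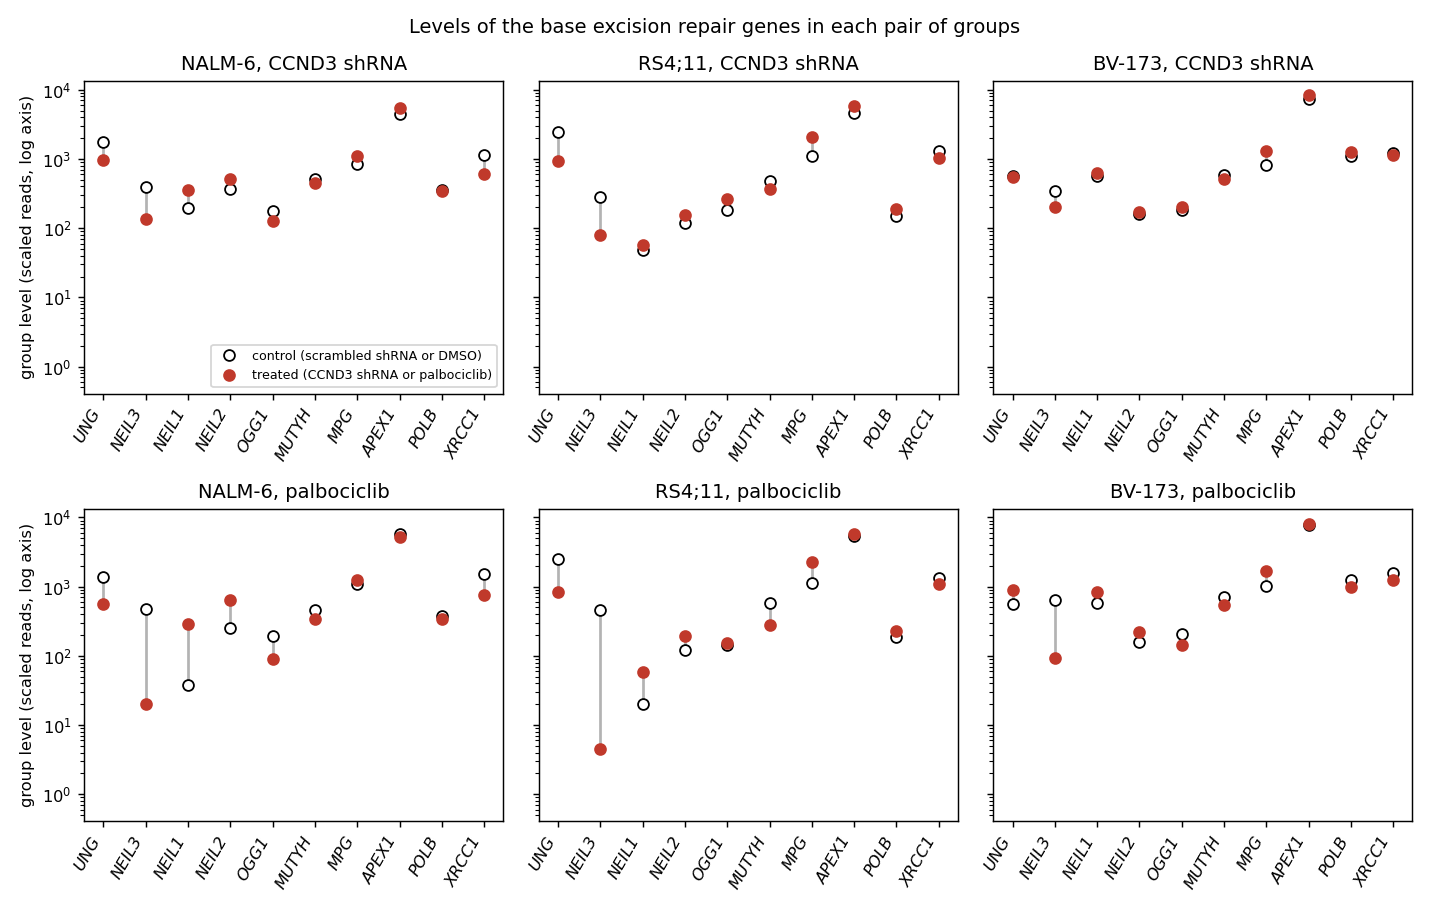
Group levels of the 10 genes (y axis, scaled reads of each table, log axis) in the control group (open circles) and the treated group (filled circles), 1 panel per cell line and treatment, with a grey line joining each pair. The longest lines are those of NEIL3 under palbociclib in RS4;11, down to 4.51, and in NALM-6, whereas the circles of APEX1 and POLB nearly coincide.

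*UNG*, the main uracil glycosylase, did not behave alike in the 3 lines. Its level was 1746 with scrambled and 960 with *CCND3* shRNA in NALM-6, 2429 and 920 in RS4;11, and 562 and 543 in BV-173. Under palbociclib it was 563 against 1360 with DMSO in NALM-6, 832 against 2492 in RS4;11 and 901 against 567 in BV-173. NALM-6 and RS4;11 thus kept between 33.4% and 55.0% of the control level in both treatments, while BV-173 kept 96.7% with knockdown and reached 159% with palbociclib.

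The log2 ratio of *UNG* (chr12:109097597-109110992) was −0.86, −1.40 and −0.05 with knockdown and −1.27, −1.58 and 0.67 with palbociclib, so the mean of −0.73 ± 1.22 for palbociclib holds 2 directions. Without BV-173 that mean was −1.43, and the knockdown mean of −0.77 ± 0.68 became −1.13. The controls differed too. On the common scale *UNG* ranged from 583 in BV-173 with scrambled shRNA to 2351 in RS4;11 with DMSO, 4.03-fold. With palbociclib its BV-173 level on that scale was 974, which is above the 818 of RS4;11 and the 558 of NALM-6, whereas with DMSO BV-173 had the lowest level, 601 against 1311 in NALM-6. BV-173 thus went from the lowest of the lines to the highest, and RS4;11 stayed above NALM-6.

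How far the cultures had left the cycle was not measured in these data. A list of 10 genes used in S phase or mitosis served as a reference at the level of transcripts. Their median log2 ratio was −1.30, −1.77 and −0.50 with knockdown and −2.94, −5.09 and −1.63 with palbociclib. All 10 were lower by at least 1.5-fold in each comparison but that of BV-173 knockdown, where 4 were. *MKI67*, a proliferation marker, stood at −1.52, −2.02 and −0.93 and at −2.93, −7.16 and −2.55, and *RRM2*, a subunit of ribonucleotide reductase, at −1.10, −1.92 and −0.51 and at −2.26, −5.94 and −1.49. *NEIL3* lay below the median of the 10 in all 6 comparisons. *UNG* lay above it in all 6. In BV-173 with palbociclib all 10 reference genes were lower by at least 1.5-fold while *UNG* was higher by 1.59-fold. In BV-173 with palbociclib *UNG* thus did not share the direction of the reference genes, although it was selected as cell-cycle-bound. The levels of all 3 lines entered that selection, and whether *UNG* is bound to the cycle was not tested. The DMSO group of BV-173 held 2 samples. The level is that of the gene, so the nuclear form of UNG could not be told apart from other forms.

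By the smallest root mean square difference of the 6 log2 ratios, among 10064 genes listed in all comparisons with a mean level of at least 100, the genes most like *NEIL3* were *APOBEC3B* (0.34), *NEK2* (0.34), *PBK* (0.41), *FAM72C* (0.42) and *NUF2* (0.43), against a median of 3.64 over all these genes. *NEK2* and *PBK* encode mitotic kinases, *NUF2* a kinetochore protein and *APOBEC3B* a cytidine deaminase that turns cytosine into uracil in DNA. *APOBEC3B* stood at −1.12, −1.87 and −0.35 with knockdown and at −4.75, −6.89 and −2.27 with palbociclib. *FAM72C* belongs to a family of near-identical copies, among which reads could be split, so its value is uncertain. The genes most like *UNG* were *DLG3* (0.32), *CAMK2N2* (0.34), *VEGFA* (0.34), *ADGRB2* (0.37) and *GK* (0.38), against a median of 1.14, and none of these is a repair or replication gene. *DLG3*, a scaffold protein of cell junctions, was at −1.49, −1.14 and 0.70 with palbociclib. The 6 comparisons come from 3 lines, and the likeness is a description over them.

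*NEIL1* and *NEIL2*, the other glycosylases of the NEIL family, which cut oxidised bases, went the other way from *NEIL3*. The level of *NEIL1* was 38.2 with DMSO and 292 with palbociclib in NALM-6, 20.1 and 58.0 in RS4;11, and 582 and 824 in BV-173. It was 193 with scrambled and 356 with *CCND3* shRNA in NALM-6, 49.1 and 57.6 in RS4;11, and 560 and 625 in BV-173. All 6 treated levels were above their controls, by 2.93, 1.53 and 0.50 on the log2 scale with palbociclib, a mean of 1.65 ± 1.22, and by 0.88, 0.23 and 0.16 with knockdown, a mean of 0.42 ± 0.40.

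The controls of *NEIL1* differed from each other. On the common scale the scrambled control held 4.82 times the *NEIL1* level of the DMSO control in NALM-6 and 2.49 times in RS4;11, but 0.941 times in BV-173. These are separate control cultures, and their difference was not tested. Over all 12 groups *NEIL1* ran from 19.0 in RS4;11 with DMSO to 891 in BV-173 with palbociclib, 46.9-fold. The exons of *NEIL1* (chr15:75347039-75357115) share 1832 of 6939 bases with those of *MAN2C1* on the opposite strand in GENCODE v44, and whether reads were counted by strand is not given in the sources used here. *MAN2C1* stood at 0.00, 0.40 and 0.25 with palbociclib.

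The level of *NEIL2* was 254 with DMSO and 645 with palbociclib in NALM-6, 122 and 192 in RS4;11, and 159 and 222 in BV-173, log2 ratios of 1.35, 0.65 and 0.48. With knockdown the ratios were 0.48, 0.38 and 0.10. Its treated level was thus above the control in all 6 comparisons as well, past 1.5-fold in 2 of them. *NEIL1* and *NEIL2* had the same order of lines in both treatments, NALM-6 first, which is not the order of *NEIL3*.

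Divided by transcript length, the levels of the 3 NEIL genes can be set side by side within a group. With DMSO, *NEIL3* made up 61.6% of their sum in NALM-6 and 75.7% in RS4;11 but 40.9% in BV-173. With palbociclib it made up 1.95%, 1.64% and 6.70%. *NEIL2* then held the largest share in NALM-6 (60.4%) and RS4;11 (69.2%) and *NEIL1* in BV-173 (78.3%). With knockdown the share of *NEIL3* went from 38.9% to 12.1% in NALM-6, from 61.0% to 25.8% in RS4;11 and from 28.3% to 17.3% in BV-173. The sum of the 3 genes per kilobase went from 311 to 428 in NALM-6 with palbociclib, from 241 to 113 in RS4;11 and from 686 to 625 in BV-173, so a smaller share of *NEIL3* went with a larger total in 1 line and a smaller total in the other 2.

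**Figure D2:**
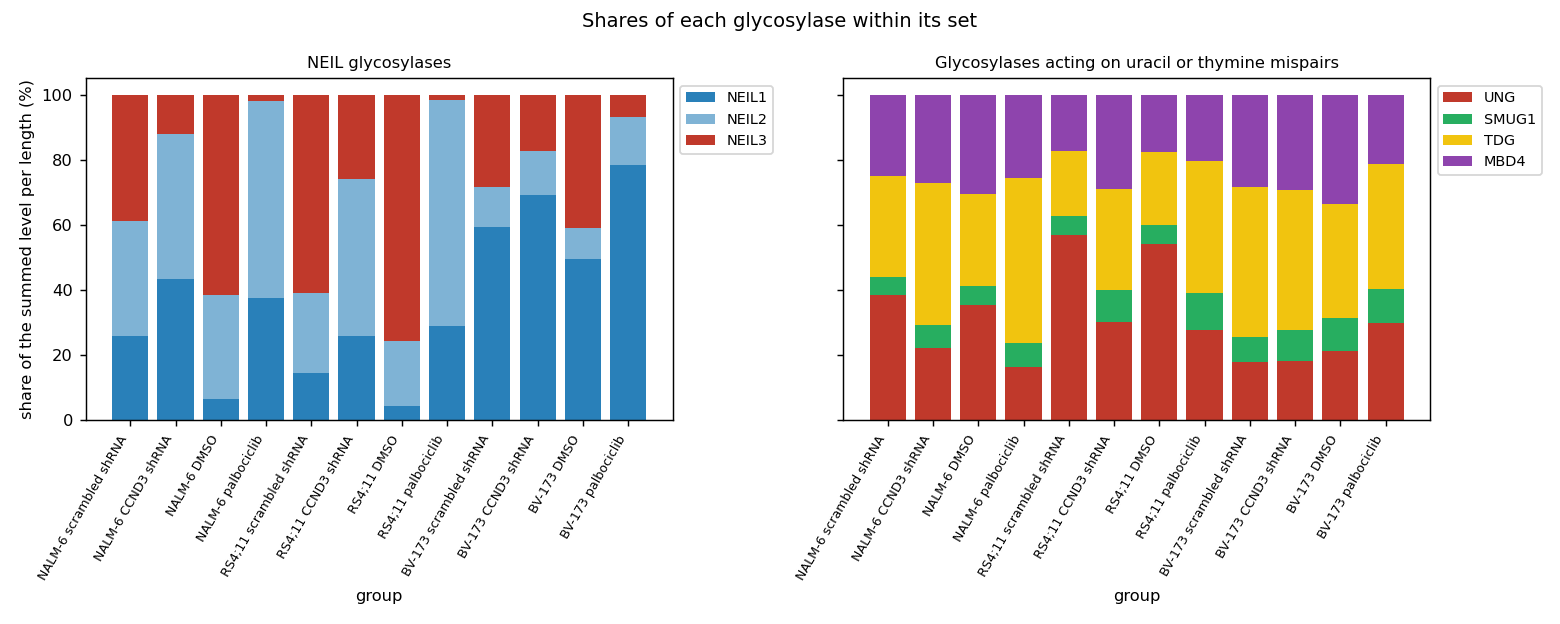
Share (y axis, percent of the summed level per transcript length) of NEIL1, NEIL2 and NEIL3 (left) and of UNG, SMUG1, TDG and MBD4 (right) in each of the 12 groups (x axis). The NEIL3 part is 1.64% to 6.70% in the palbociclib groups, and the UNG part is larger with palbociclib than with DMSO in BV-173 only.

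The uracil and thymine mispair glycosylases *SMUG1*, *TDG* and *MBD4* gave the context of *UNG*. Per length, *UNG* made up 35.5% of the 4 in NALM-6 with DMSO and 16.2% with palbociclib, 54.0% and 27.6% in RS4;11, and 21.2% and 29.9% in BV-173. With knockdown it went from 38.5% to 22.2% in NALM-6 and from 56.8% to 30.2% in RS4;11, and stood at 17.9% and 18.2% in BV-173. In the treated NALM-6 and RS4;11 groups *TDG*, which acts on G:T and G:U mispairs, had the largest share, from 30.8% to 50.6%.

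*OGG1*, which removes 8-oxoguanine, differed in direction between comparisons. Its level was 178 with scrambled and 127 with *CCND3* shRNA in NALM-6, 181 and 268 in RS4;11, and 183 and 200 in BV-173, with log2 ratios of −0.48, 0.57 and 0.13. With palbociclib it was 90.0 against 191 with DMSO in NALM-6, 152 against 143 in RS4;11 and 145 against 208 in BV-173, with log2 ratios of −1.09, 0.09 and −0.52. The 2 treatments gave opposite signs in BV-173. In each line the knockdown ratio was above the palbociclib ratio, by 0.58 ± 0.09 on the log2 scale, the narrowest spread over lines of the 10 genes. In GENCODE v44 the exons of *OGG1* (chr3:9749952-9791070) share bases with those of *CAMK1* and *TADA3* on the opposite strand, and *TADA3* lay between 0.24 and 0.41 in all 6 comparisons.

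*MUTYH*, which removes adenine placed opposite 8-oxoguanine, was below its control in all 6 comparisons. The level was 508 and 449 in NALM-6 with scrambled and *CCND3* shRNA, 476 and 367 in RS4;11, and 582 and 512 in BV-173, and with palbociclib it was 339 against 465, 277 against 580 and 548 against 706. Only the RS4;11 palbociclib ratio of −1.07 passed 1.5-fold, and the other 5 lay between −0.46 and −0.18. *MUTYH* (chr1:45329242-45340440) shares 1838 of 5811 exon bases with an unnamed protein-coding gene on the same strand in GENCODE v44. Counting by strand would not tell these apart. It shares 491 with *TOE1* on the opposite strand. *TOE1* was at −0.71 in RS4;11 with palbociclib and at −0.82 in RS4;11 with knockdown, where *MUTYH* was at −0.38.

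*MPG*, which removes alkylated adenine, had much the same ratios in the 2 treatments, with a mean difference of 0.02 ± 0.16 on the log2 scale. Its level was 836 with scrambled and 1095 with *CCND3* shRNA in NALM-6, 1099 and 2047 in RS4;11, and 828 and 1317 in BV-173. With palbociclib it was 1250 against 1095 with DMSO in NALM-6, 2242 against 1119 in RS4;11 and 1676 against 1022 in BV-173. Each treated level was above its control, with log2 ratios of 0.39, 0.90 and 0.67 (mean 0.65 ± 0.25) for knockdown and 0.19, 1.00 and 0.71 (mean 0.64 ± 0.41) for palbociclib. By line the knockdown ratio less the palbociclib ratio was 0.20, −0.10 and −0.04. The 2 treatments had separate controls. In BV-173 with knockdown *MPG* ranked 318 from the highest of 14763 genes.

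The 6 controls of *MPG* spanned 1.41-fold on the common scale. On the log2 scale their span of 0.50 was the smallest of the 10 genes, but with scaling by the sum it was 0.44 and that of *XRCC1* was smaller, 0.38. The exons of *MPG* (gene start and end chr16:77007-85846) share 451 of 1497 bases with those of *NPRL3* on the opposite strand, which stood at 0.24, 0.09 and 0.18 with knockdown and −0.17, −0.47 and −0.11 with palbociclib. *MYLIP* (0.09), *ATP6V1F* (0.14), *PEX16* (0.15), *NIPSNAP1* (0.15) and *SYS1* (0.15) were most like *MPG* by the root mean square difference, against a median of 0.78 over the 10064 genes. They encode a ubiquitin ligase, a subunit of the vacuolar proton pump, a peroxisome factor, a mitochondrial protein and a Golgi protein, and none is a repair gene.

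*APEX1*, the main AP endonuclease, had the highest level of the 10 genes per kilobase, with a median of 3451 over the 6 controls on the common scale. The level was 4508 with scrambled and 5475 with *CCND3* shRNA in NALM-6, 4549 and 5768 in RS4;11, and 7277 and 8313 in BV-173. With palbociclib it was 5133 against 5815, 5798 against 5342 and 8132 against 7884. No ratio passed 1.5-fold, and the 6 lay between −0.18 and 0.34. The knockdown mean was 0.27 ± 0.08 and the palbociclib mean −0.01 ± 0.16, the smallest SDs over lines that any of the 10 genes had in each treatment.

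*POLB*, the gap-filling polymerase, kept each treated level near its control, while the lines themselves differed. Its level was 354 with scrambled and 349 with *CCND3* shRNA in NALM-6, 148 and 192 in RS4;11, and 1103 and 1255 in BV-173, and 337 against 381, 228 against 185 and 981 against 1234 with palbociclib. The log2 ratios lay between −0.33 and 0.37. On the common scale the controls ran from 143 in RS4;11 with scrambled shRNA to 1308 in BV-173 with DMSO, a 9.16-fold span. Only *NEIL1* had a wider span of controls, 32.5-fold, so the lines were farther apart in *POLB* than any treated group was from its control.

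*XRCC1*, the scaffold that holds the polymerase and ligase at the gap, was below its control in all 6 comparisons. Its level was 1136 with scrambled and 597 with *CCND3* shRNA in NALM-6, 1316 and 1014 in RS4;11, and 1219 and 1154 in BV-173. With palbociclib it was 757 against 1540 with DMSO in NALM-6, 1099 against 1343 in RS4;11 and 1262 against 1562 in BV-173. The ratio of NALM-6 passed 1.5-fold in both treatments, at −0.93 and −1.02, and the other 4 lay between −0.38 and −0.08. The order of lines was not that of the cell cycle genes, which were lowest in RS4;11. In GENCODE v44 the exons of *XRCC1* share 224 of 2745 bases with an unnamed protein-coding gene on the same strand. They share 482 with a noncoding RNA gene on the opposite strand.

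**Figure D3:**
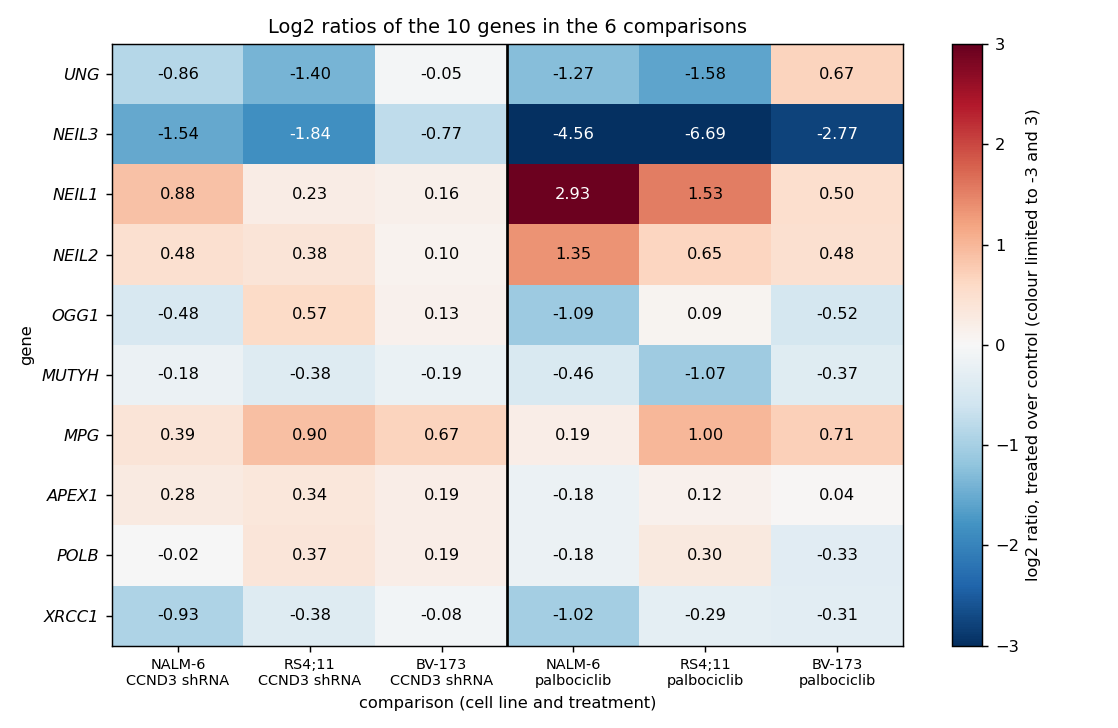
Log2 ratio of the treated over the control level (colour and printed value, colour limited to −3 and 3) of the 10 genes (rows) in the 6 comparisons (columns, CCND3 shRNA left of the line and palbociclib right of it). NEIL3 is below 0 in the whole row, MPG, NEIL1 and NEIL2 are above 0 in the whole row, and UNG is below 0 except in BV-173 with palbociclib.

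With a fold of 1.5 as the threshold, knockdown in NALM-6 left 1 of the 10 genes higher (*NEIL1*) and 3 lower (*NEIL3*, *UNG* and *XRCC1*), beside 7.82% of all 15409 genes higher and 8.47% lower. In RS4;11 it left 1 higher (*MPG*) and 2 lower (*NEIL3* and *UNG*), beside 9.73% and 9.72% of 15944 genes. In BV-173 it left 1 higher (*MPG*) and 1 lower (*NEIL3*), beside 3.32% and 4.78% of 14763 genes. *NEIL3* was the only gene of the 10 past the threshold in all 3 lines.

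Palbociclib in NALM-6 left 2 of the 10 genes higher (*NEIL1* and *NEIL2*) and 4 lower (*NEIL3*, *UNG*, *OGG1* and *XRCC1*), beside 21.4% and 14.9% of 15614 genes. In RS4;11 it left 3 higher (*NEIL1*, *NEIL2* and *MPG*) and 3 lower (*NEIL3*, *UNG* and *MUTYH*), beside 16.7% and 15% of 15857 genes. In BV-173 it left 2 higher (*UNG* and *MPG*) and 1 lower (*NEIL3*), beside 13.6% and 11.9% of 14797 genes. The genes were chosen on these ratios, so nothing is read from how the counts stand to the shares of all genes. Of the 8 genes called constant, 6 were past the threshold in at least 1 comparison and *APEX1* and *POLB* in none.

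The mean log2 ratio of *NEIL3* and *UNG* less that of the other 8 was −1.25, −1.87 and −0.56 with knockdown and −3.11, −4.43 and −1.08 with palbociclib. The median of the other 8 lay between −0.18 and 0.36, and the median of all genes of a comparison between −0.01 and 0.06. In BV-173 with palbociclib *NEIL3* alone carried the difference, since *UNG* had a ratio above the median of the 8, −0.13.

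The 10 genes are part of 46 repair genes in 5 lists, written from general knowledge with earlier results of these data known, and all 46 were listed in all comparisons. The 36 that are no members had a median log2 ratio of −0.37, −0.47 and −0.17 with knockdown and −0.51, −0.59 and −0.45 with palbociclib. Between 3 and 15 of the 36 were lower by at least 1.5-fold with knockdown and between 16 and 18 with palbociclib, against 0 to 3 and 1 to 4 higher. The shares of all genes given above apply to these counts too.

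The counts of lower genes by step of the pathway are a description, since the lists hold the members and were written with earlier results known. Beside them, 8.47%, 9.72% and 4.78% of all genes were lower with knockdown and 14.9%, 15% and 11.9% with palbociclib. The glycosylases that were lower with knockdown were *NEIL3* and *UNG* only. Among 11 glycosylases the median lay between −0.40 and 0.21, and 1 to 4 were lower in any comparison. Among 7 AP endonucleases and end-processing genes the median lay between −0.12 and 0.12, with at most 1 gene lower. Those past the threshold there were *HMCES*, which shields abasic sites in single-stranded DNA, and *TDP1*, which clears blocked 3′ ends, both named after their values were seen. *HMCES* was higher in RS4;11 with knockdown (0.63) and with palbociclib (1.01) and lower in BV-173 with palbociclib (−0.91), and *TDP1* was lower in RS4;11 with palbociclib (−0.74).

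Among 9 genes of short-patch repair and poly(ADP-ribose) signalling, 0 to 3 were lower with knockdown and 2 to 4 with palbociclib. *PARP2*, which makes poly(ADP-ribose) at strand breaks, stood at −1.68, −1.65 and −1.19 with palbociclib. *HPF1*, of the same list, was at −0.90, −0.83 and −1.37, so it too passed 1.5-fold in all 3 lines. It was named after its values were seen. *LIG3*, the ligase partner of *XRCC1*, was at −0.75, −0.71 and −0.28, and *PARP1*, the main poly(ADP-ribose) polymerase, at −0.07, −0.32 and −0.58. *LIG3* and *PARP1* were named after their values were seen, as the partners of *XRCC1*. *PARP2* was thus lower than *PARP1* by its ratio in each line.

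Long-patch repair held most of the genes that were lower. With palbociclib 12 of its 16 genes were lower by at least 1.5-fold in each of the 3 lines, and with knockdown 12, 12 and 3. The median was −0.99, −1.54 and −0.46 with knockdown and −2.01, −2.38 and −1.16 with palbociclib. *POLE2*, a subunit of DNA polymerase epsilon, was at −2.79, −4.09 and −1.78 with palbociclib, and *PCNA*, the sliding clamp, at −2.62, −3.32 and −1.64. *FEN1*, the flap nuclease, was at −2.16, −3.24 and −0.87, and *LIG1*, the ligase that seals the patch, at −2.18, −3.30 and −1.89.

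The other genes of the list past the threshold in all 3 lines with palbociclib were, by mean log2 ratio, *RFC4* (−2.44), *POLD3* (−2.26), *RFC5* (−2.12), *RFC3* (−2.09), *RFC1* (−1.58) and *POLD1* (−1.55), which encode clamp loader and polymerase delta subunits, with *RFC2* (−1.48) and *POLE* (−1.42) after them. With knockdown *RFC5* (−1.28 ± 0.54), *LIG1* (−1.17 ± 0.62) and *POLE* (−1.17 ± 0.30) passed it in all 3 lines. *NEIL3* had the lowest mean ratio of all 46 repair genes in both treatments among those past the threshold in every line. Not all replication genes were lower. *POLD4*, the small subunit of DNA polymerase delta, was at 1.29, 0.88 and 0.28 with palbociclib and at 0.41, 1.07 and 0.27 with knockdown, a gene named after its values were seen.

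**Figure D4:**
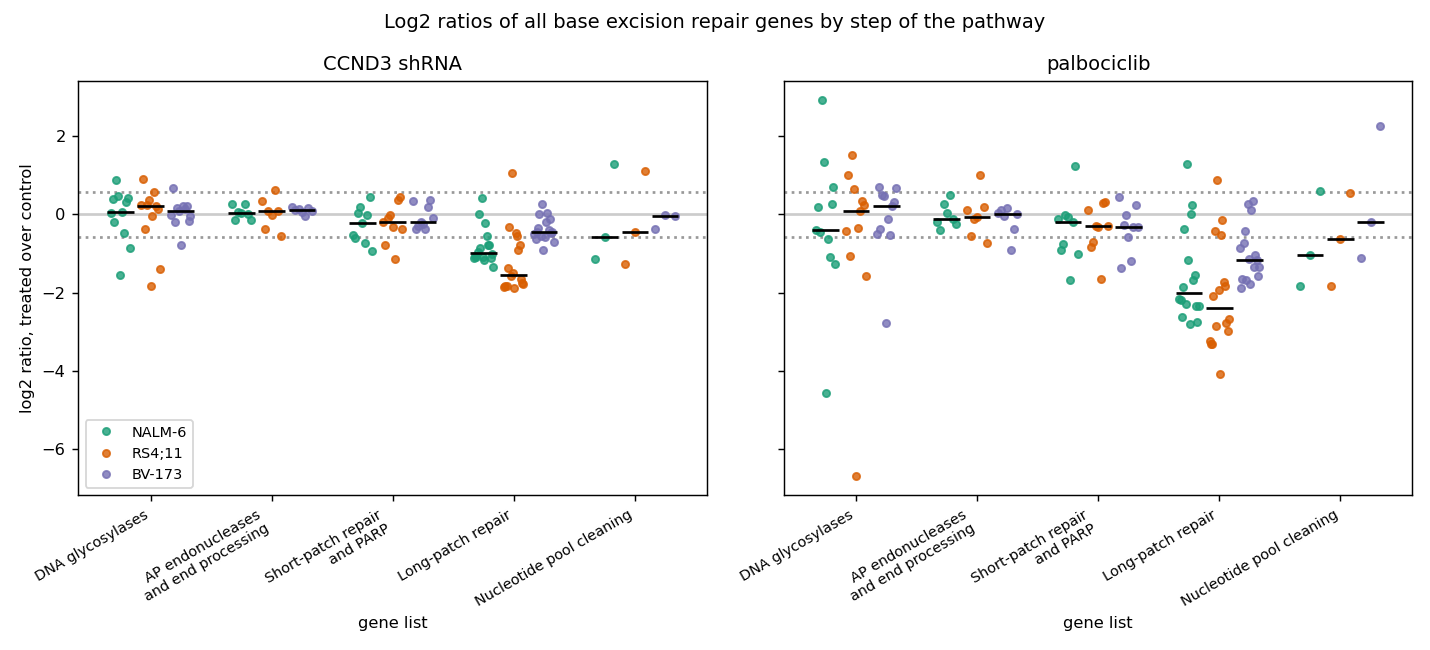
Log2 ratio of the treated over the control level (y axis) of 46 repair genes in 5 lists by step (x axis), for CCND3 shRNA (left) and palbociclib (right). Each point is a gene in 1 line, black bars are list medians and dotted lines mark 1.5-fold. The points of long-patch repair lie lowest as a list, with medians of −2.01, −2.38 and −1.16 for palbociclib, and the lowest single point is NEIL3 at −6.69.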

How the data were processed

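RNA was sequenced from 3 B-ALL cell lines in 12 groups of 2 or 3 samples, 34 in all, grouped by line and treatment as labelled. Per the labels and the study's methods, libraries were made from oligo(dT)-selected RNA, SOAPnuke was used by the authors as read filter, Bowtie2 as aligner (hg38), RSEM for expression levels and DESeq2 for comparisons of groups. Versions are not given in the sources used here. The authors' deposited tables hold, per comparison, a signal for each group (a level scaled within the pair of groups), transcript length (another deposited column), the log2 fold change, the p-value and its adjusted value. The last 3 are the authors' own comparisons and were not used.

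From the levels the log2 ratio of treated over control was computed with no pseudocount and no filter, and a gene counted as past the threshold at 1.5-fold. Levels from different tables were set on 1 scale by median ratios over 13307 genes. No test was run, since the tables hold 1 value per group. The calculations were tested on simulated data (Python 3.11.15, pandas 2.3.3, numpy 2.4.6, matplotlib 3.10.9). Promoters, gene positions (GRCh38.p14) and gene names came from RefSeq, matched by gene identifier or symbol, with *ADPRS* under its older symbol, and exon overlaps from GENCODE v44. Promoter windows were found for 8 of the 10 genes.

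The members and lists were chosen with earlier results of these data known. Named genes were the 10 members, *CCND3*, the other repair genes past 1.5-fold in the same direction in all 3 lines of a treatment (at most 12 by mean log2 ratio), *MKI67* and *RRM2*, and the 5 genes most like *NEIL3*, *UNG* and *MPG*. *RFC2* falls outside this rule and was named to complete a list, as were the genes marked as named after their values were seen, the glycosylases beside *UNG* and the genes that overlap a member. Alternatives were a fold of 2, centring, pseudocounts of 1 and 10, a minimum level of 10, medians for means, each line left out, scaling by the sum and 7-letter words.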

Additional observations from a re-analysis of the deposited data

Results flagged for a closer look

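In 2 of the 46 repair genes a treatment gave a ratio past 1.5-fold upwards in 1 line and past 1.5-fold downwards in another, which is why they are listed here. Other genes, such as *OGG1* with knockdown, changed sign between lines without passing that fold in both directions. *UNG* under palbociclib was lower in NALM-6 (log2 ratio −1.27) and RS4;11 (−1.58) and higher in BV-173 (0.67). *HMCES* under palbociclib had the reverse pattern, at 0.51 in NALM-6 and 1.01 in RS4;11 but −0.91 in BV-173. The difference between lines was not tested for either gene, since the tables hold 1 level per group, and the DMSO group of BV-173 held 2 samples.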

How the results depend on the processing

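With centring, pseudocounts of 1 and 10 or medians for means, the mean log2 ratios, the differences between treatments and the gap of *NEIL3* and *UNG* to the other genes moved by less than 1 SD over the lines. For the gap this is a wide limit. The SD was 0.66 with knockdown and 1.69 with palbociclib, beside gaps of −0.56 and −1.08 in BV-173. A pseudocount of 10 gave a palbociclib gap of −3.54 in RS4;11 in place of −4.43. Leaving out 1 of 3 lines cannot move a mean by 1 SD over the lines, so the values are given. The palbociclib mean of *UNG* was −0.30 without RS4;11, −0.46 without NALM-6 and −1.43 without BV-173, and its knockdown mean −0.46 without RS4;11. Without NALM-6 the mean of *NEIL1* was 0.19 with knockdown and 1.01 with palbociclib, and that of *XRCC1* −0.23 and −0.30. The palbociclib mean of *OGG1* was −0.22 without NALM-6 and −0.80 without RS4;11, and its knockdown mean of 0.07 was −0.18 without RS4;11. That of *MUTYH* with palbociclib was −0.41 without RS4;11. Without division by length the share of *NEIL3* in BV-173 with DMSO was 46.1% in place of 40.9%. A fold of 2 in place of 1.5 left 0 genes higher in all 3 knockdown comparisons and 1 gene lower in NALM-6 and 0 in BV-173, and it left 0 genes higher in BV-173 with palbociclib. The count of genes with an E2F word was 4 with 7 letters. Scaling by the sum changed the span of the *XRCC1* controls from 0.67 to 0.38 on the log2 scale. The shares without division by length and the long-patch medians without *POLD4* and *POLE4* were chosen after the data were seen. No paired analysis was possible because the tables hold 1 value per group. Replicate spread and depth per sample are unknown, so no difference could be set against replicate error.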

Other observations

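Genes that keep damaged or wrong nucleotides out of the DNA stood beside the glycosylases as a list of 3. *DUT*, which removes dUTP and so limits uracil in DNA, had log2 ratios of −1.13, −1.26 and −0.38 with knockdown (NALM-6, then RS4;11, then BV-173) and −1.82, −1.83 and −1.11 with palbociclib. *NUDT1*, which removes oxidised purine nucleotides, was at −0.57, −0.45 and −0.01 and at −1.04, −0.64 and −0.18. *DUT* and *UNG* were therefore both lower in NALM-6 and RS4;11, while in BV-173 with palbociclib *DUT* was lower and *UNG* higher.

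*SAMHD1*, which breaks down nucleotides in cells outside S phase, was the highest gene of the list in each comparison but 1. It was at 1.30, 1.11 and −0.04 with knockdown and at 0.60, 0.55 and 2.25 with palbociclib, so BV-173 had the lowest ratio of the lines in one treatment and the highest in the other. Its level in BV-173 was 139 and 135 with scrambled and *CCND3* shRNA and 85.1 and 406 with DMSO and palbociclib. *NUDT1* and *SAMHD1* were named after their values were seen.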
